A study of Mus musculus with 2 samples.

Results

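L1Md_A is one of the young subfamilies of the LINE-1 (L1) retrotransposon in the mouse, and 445 of the 2763 *Meg3* ChIRP-seq peaks in the deposited lists (16.1%) were annotated to it. They were chosen as all peaks whose repeat annotation carries exactly the name L1Md_A, and comprise 260 peaks from β-actin KO mouse embryonic fibroblasts (MEFs) and 185 from wild-type (WT) MEFs. MEFs are connective tissue cells cultured from mouse embryos. The KO cells lack β-actin and the WT cells carry it. In ChIRP, biotinylated DNA probes antisense to an RNA, here the long non-coding RNA *Meg3*, pull down crosslinked chromatin, and the recovered DNA is sequenced. The authors pooled 4 libraries per genotype into 1 peak list, from 2 replicates each with the even and the odd pool of probes. Peaks were called on the pooled reads, so a peak does not show whether both probe pools recovered it. There is no replicate list, and every test below compares the 2 lists, not cultures. Each peak has a position, a width, a nearest gene and a genomic category. The score is 1 for all peaks, the read depth is unknown, and no peak of a list overlaps one of the other list. The methods sorted peaks into those unique to a genotype and those shared, and the deposited lists may lack the shared ones. A peak in 1 list then does not show that the other genotype lacked peaks elsewhere in the same L1 or gene, and counts for KO or WT alone are counts in these lists.

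A complete L1 carries its own promoter at its start, followed by a pair of open reading frames. ORF1 encodes an RNA-binding protein that coats the L1 transcript, and ORF2 encodes the endonuclease and reverse transcriptase that copy the transcript back into the genome. Subfamilies such as L1Md_A and L1Md_T differ mainly in the repeated units of their promoters, are the youngest in the mouse and still contain mobile copies. Most copies are truncated and lack the first part of the element. Young copies are nearly identical, so that a short read from one often matches many others. *Meg3* is an imprinted RNA expressed from the maternal chromosome and is known to associate with chromatin-modifying complexes.

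The sequences below show where in the element peaks of both lists lie. They were read from GRCm38 and are written 5′ to 3′ on the coding strand of the L1. Positions in the element count from the first base of ORF1 of a complete reference L1Md_A on chromosome 11, whose ORF1 is 1074 bp and ORF2 3846 bp long with 40 bp between them. The stretch of 31 bases found in more members than any other lies in ORF2 at 2335 to 2365 and occurs in only 38 peaks (8.54% of members; 22 KO and 16 WT), which lie in 38 separate L1 copies on 6 chromosomes. The narrowest KO peak with this stretch lies at chr1:78952254-78952421 on the minus strand, nearest to *Kcne4*, and the narrowest WT peak at chr13:64585872-64586045 on the minus strand, nearest to *Fam240b*. Capitals mark the shared stretch.
KO peak nearest Kcne4: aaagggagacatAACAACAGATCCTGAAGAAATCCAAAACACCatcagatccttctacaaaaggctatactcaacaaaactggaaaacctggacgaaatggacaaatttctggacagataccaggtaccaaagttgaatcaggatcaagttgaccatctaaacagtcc
WT peak nearest Fam240b: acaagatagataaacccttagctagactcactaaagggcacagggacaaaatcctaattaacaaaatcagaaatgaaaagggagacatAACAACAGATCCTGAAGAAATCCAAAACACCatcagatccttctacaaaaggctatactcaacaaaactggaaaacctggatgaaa

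The KO peak of *Pld5*, a member of the phospholipase D family, is shown because the study examined this gene. The peak of *Pld5*, at chr1:176284205-176284477 on the plus strand, is intergenic and 9029 bp upstream of the TSS, and spans the end of ORF1 and the start of ORF2. Capitals run from the stop codon of ORF1 to the start codon of ORF2. It was identical to the reference element over every aligned base (100% identity).
KO peak nearest Pld5: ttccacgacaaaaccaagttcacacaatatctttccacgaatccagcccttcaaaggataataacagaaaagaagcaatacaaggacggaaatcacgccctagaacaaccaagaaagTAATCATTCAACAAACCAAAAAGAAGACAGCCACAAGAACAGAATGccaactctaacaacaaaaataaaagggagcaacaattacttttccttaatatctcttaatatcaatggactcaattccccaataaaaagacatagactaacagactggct

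Another pair shows that KO and WT peaks can occupy different ends of 1 element. On chromosome 11, upstream of the odorant receptor gene *Olfr320*, a KO peak at chr11:58675662-58675910 lies in ORF1 and a WT peak at chr11:58679826-58679994 lies in ORF2 of the same L1, both on the plus strand, with 3915 bp between them. Each was identical to the reference element.
KO peak nearest Olfr320: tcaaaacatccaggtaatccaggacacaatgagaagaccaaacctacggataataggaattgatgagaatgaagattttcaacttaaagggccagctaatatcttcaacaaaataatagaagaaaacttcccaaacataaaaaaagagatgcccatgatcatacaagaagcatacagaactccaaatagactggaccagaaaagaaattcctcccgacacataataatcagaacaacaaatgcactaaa
WT peak nearest Olfr320: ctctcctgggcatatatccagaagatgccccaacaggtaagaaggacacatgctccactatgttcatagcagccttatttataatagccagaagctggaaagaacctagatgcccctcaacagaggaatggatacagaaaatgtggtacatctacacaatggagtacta

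The last sequence is an exception in how often it recurs. The KO peak at chr16:27737504-27737714, on the plus strand and nearest to *Gm10823*, differs from the reference element in 1 of its 211 bases, which is in capitals. Its median 100-mer (stretch of 100 bases) occurs once in the genome, whereas that of the peak of *Pld5*, which covers part of the same stretch of the element, occurs 1431.5 times.
KO peak nearest Gm10823: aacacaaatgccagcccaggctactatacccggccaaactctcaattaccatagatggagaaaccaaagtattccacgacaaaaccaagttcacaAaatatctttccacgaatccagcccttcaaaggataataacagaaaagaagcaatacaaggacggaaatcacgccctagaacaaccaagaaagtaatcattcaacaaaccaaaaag

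The members were aligned to the reference element, which was itself chosen near members. L1Md_T peaks were not aligned to it, so the alignment places members along an L1 and does not separate L1Md_A from L1Md_T. At least 50% of the peak's bases had to align, and 444 of the 445 members met this. Their median identity was 100% (quartiles 99.4 and 100%, lowest 90.4%). The exception was a WT peak nearest to *Lhfpl2* on chromosome 13. Of the members, 183 (41.1%) lay in a copy whose ORFs are both intact and whose promoter side is of the A type, and 1 lay in an intact copy of another type. For those 183, the position found by alignment differed from that read off the copy's own ORF1 by a median of 1 bp, and by at most 50 bp in 173 (94.5%). Over the genome, 900 intact A-type elements were found, of which 127 (14.1%) held a peak: 65 KO peaks only, 36 WT peaks only and 26 both. An element with a single peak can count for only 1 list.

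Most peaks of both lists fell in ORF2, the longer reading frame (3846 bp against 1074 bp for ORF1). It held 169 of 260 placed KO peaks (65.0%, Wilson 95% interval 59.0 to 70.5%) and 122 of 184 placed WT peaks (66.3%, 59.2 to 72.7%), a difference of -1.30 percentage points that did not pass (two-sided Fisher's exact test, p = 0.839, adjusted p = 0.839 over the 6 shares compared between the lists). ORF1 held 37 KO peaks (14.2%, 10.5 to 19.0%) and 13 WT peaks (7.07%, 4.18 to 11.7%). Per kb of reading frame this gave 34.5 KO and 12.1 WT peaks in ORF1 and 43.9 KO and 31.7 WT peaks in ORF2. These counts per kb are not scaled to the 260 KO and 184 WT placed peaks, so KO and WT values cannot be compared directly. Truncated copies lack the first part of the element, so neither the shares nor the counts per kb show a preference for ORF2. Before ORF1, on the promoter side, lay 26 KO peaks (10.0%) and 24 WT peaks (13.0%), and after ORF2 lay 24 KO (9.23%) and 25 WT peaks (13.6%). The short stretch between the ORFs held 4 KO peaks and no WT peak, and 0 of 184 placed WT peaks allows a share of up to 1.63% by the limit of 3 peaks of the total, and of up to 2.05% by the Wilson interval. Intervals and limits cover only the counting of peaks.

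**Figure D1:**
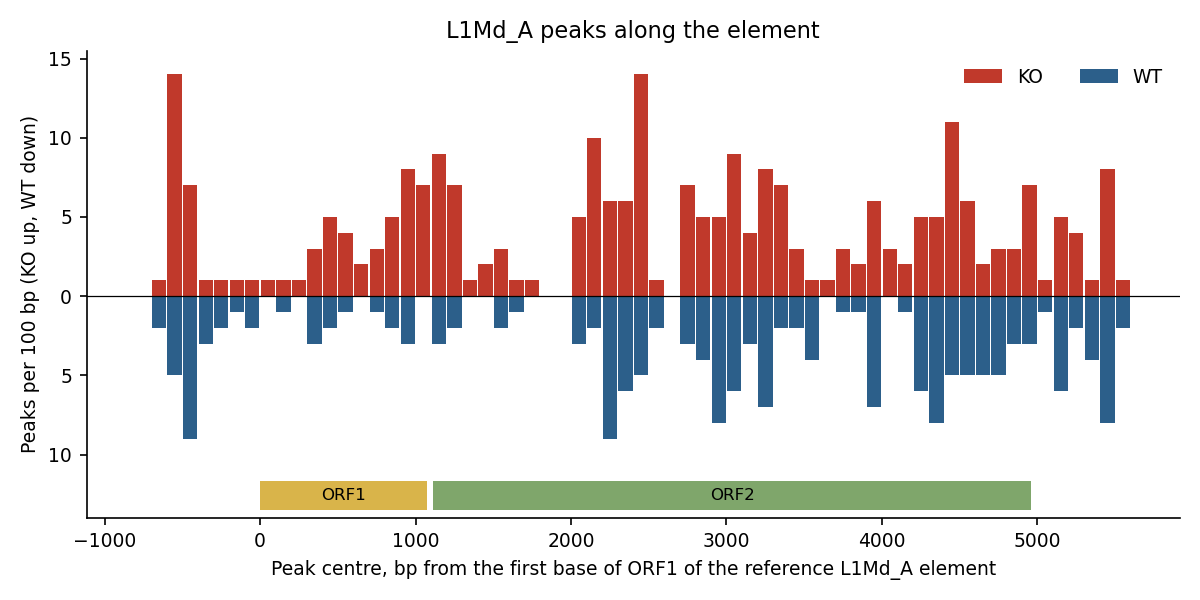
Number of L1Md_A peaks per 100 bp of the reference element (horizontal axis, bp from the first base of ORF1), with KO counted upward and WT downward and the ORFs drawn to scale. Peaks gather on the promoter side, around the junction of the ORFs in KO, and from 2000 to 2600 bp, while no peak centre lies from 1800 to 2000 bp. Promoters hold repeated units, and placement before ORF1 was not checked on simulated pieces.

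Within the element the peaks were not spread evenly. From 2000 to 2600 bp, in ORF2, lay 42 KO (16.2%) and 27 WT peaks (14.7%). L1Md_T had 70 KO (14.0%) and 38 WT peaks (11.6%) in the same window, so the gathering there was not particular to L1Md_A. No member was centred from 1800 to 2000 bp or from 2600 to 2700 bp, while L1Md_T peaks, placed on a complete L1Md_T element, numbered 10 and 8 in these windows. On the promoter side, 22 KO (8.46%) and 16 WT peaks (8.70%) were centred from 1000 to 400 bp before ORF1. L1Md_T had 46 KO (9.20%) and 12 WT peaks (3.65%) in that window. From 800 to 1300 bp, across the junction of ORF1 and ORF2, there were 36 KO peaks (13.8%) but 10 WT peaks (5.43%), and L1Md_T had 31 KO (6.20%) and 21 WT peaks (6.38%) there. These windows were chosen after the positions were seen and were not tested.

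L1Md_A was about equally common in both lists. Its peaks made up 16.7% of the 1554 KO peaks (95% interval 15.0 to 18.7%) and 15.3% of the 1209 WT peaks (13.4 to 17.4%; Fisher's exact test, p = 0.322, adjusted p = 0.386). Among L1 peaks its share was 28.1% in KO and 29.6% in WT, second to L1Md_T with 54.4% and 53.8%.

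All members were annotated as intergenic or intron. In KO, 85 were in introns (32.7%, 95% interval 27.3 to 38.6%) and 175 were intergenic. In WT, 44 were in introns (23.8%, 18.2 to 30.4%) and 141 were intergenic. The intron share was 8.91 points higher in KO, a difference that did not pass after adjustment over 6 shares (Fisher's exact test, p = 0.0444, adjusted p = 0.133). It was 2.08 points without chromosome 1 and 3.62 points with peaks of a list within 7 kb counted once. Counted as peaks centred in any RefSeq gene, the members were 93 in KO (35.8%) and 54 in WT (29.2%).

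In introns, most peaks lay in an L1 that ran against the direction of the gene. Peaks in the same L1 copy share its orientation, which the intervals do not allow for. Of the 129 intron peaks, 95 (73.6%, 95% interval 65.4 to 80.5%) lay in an L1 antisense to the host gene and 34 in sense orientation. The antisense count was 59 of 85 in KO (69.4%) and 36 of 44 in WT (81.8%). Intact A-type elements within RefSeq genes of a single strand were antisense in 180 of 282 cases (63.8%, 58.1 to 69.2%). Most members lie outside intact A-type copies, so this is only a rough background for the peak shares and was not tested against them. The intron peaks had 80 host genes. *Pard3b*, related to the polarity protein Par-3, hosted 5 peaks, all in sense orientation. *Pid1* also hosted 5, all antisense. *Col4a4*, a chain of the basement membrane collagen type IV, and *Pkhd1*, which encodes fibrocystin of the primary cilium, hosted 4 each, all antisense. *Ctnna3* and *Thsd7b* also hosted 4 each, of which 2 and 3 were antisense.

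The peaks were narrow, with a median width of 236.5 bp in KO (quartiles 193 and 314.25 bp) and 222 bp in WT (183 and 270 bp), and a lowest width of 157 bp in both. The widest was a KO peak of 1030 bp nearest to *Mgat4c* on chromosome 10. Widths of at least 300 bp were found for 72 KO peaks (27.7%, 95% interval 22.6 to 33.4%) and 32 WT peaks (17.3%, 12.5 to 23.4%). This difference of 10.4 points did not pass after adjustment (Fisher's exact test, p = 0.0123, adjusted p = 0.0737). With 250 bp as the limit the shares were 45.8% and 32.4% and the difference passed (Fisher's exact test, adjusted p = 0.0357). With 400 bp they were 9.23% in KO and 7.03% in WT. Peaks outside L1Md_A had medians of 231 bp in KO and 215 bp in WT. Among L1Md_T peaks, 33.0% in KO and 23.5% in WT were at least 300 bp wide, so the excess was not particular to L1Md_A. Depth and input can differ between the pooled lists, and their part in these widths was not tested.

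Distances to the TSS were long. The median was 109320 bp in KO (quartiles 44764 and 252160 bp) and 138014 bp in WT (53729 and 394530 bp), against 44003.5 and 35420.5 bp for the peaks outside L1Md_A. L1Md_T peaks were similarly far, with medians of 123206 bp in KO and 109174 bp in WT. Intergenic members lay farther out, with medians of 142183 bp in KO and 165209 bp in WT, than those in introns, with medians of 86576 and 84443.5 bp. Upstream of the TSS were 129 KO and 101 WT peaks. Only 11 KO peaks (4.23%, 95% interval 2.38 to 7.42%) and 4 WT peaks (2.16%, 0.844 to 5.43%) were within 10 kb of a TSS (Fisher's exact test, p = 0.293, adjusted p = 0.386).

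**Figure D2:**
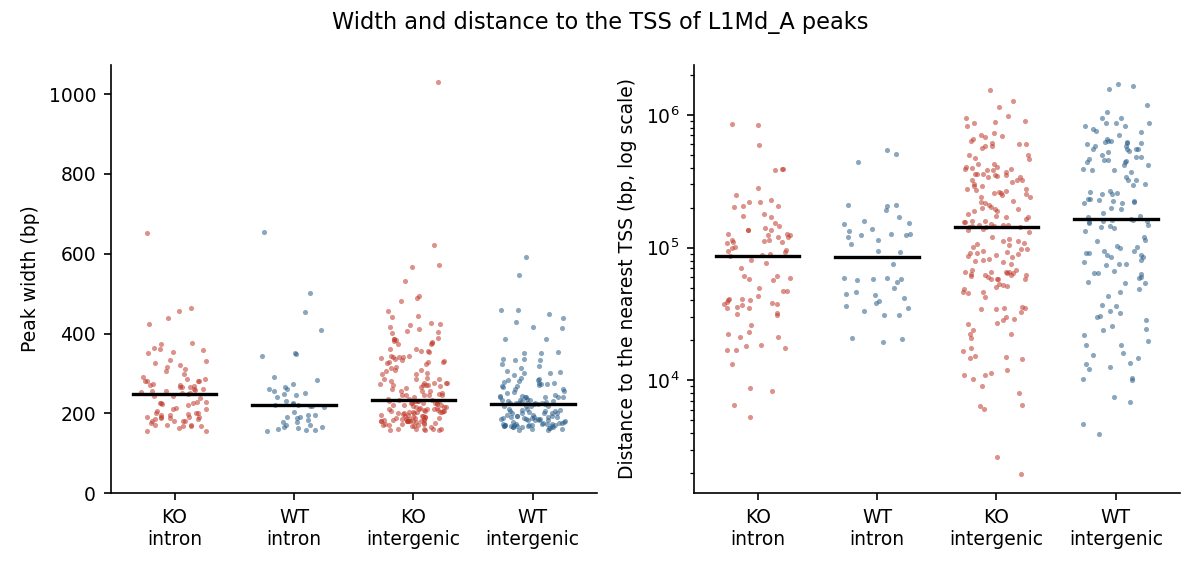
Width in bp (left) and distance to the nearest TSS in bp on a log scale (right) of each L1Md_A peak, by list and category, with 1 point per peak and a black line at the median. The groups overlap in both panels, and the medians of distance are 86576 and 84443.5 bp in introns and 142183 and 165209 bp between genes.

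The 15 peaks within 10 kb of a TSS had 12 nearest genes, several of them chemosensory receptors. The share of such genes among other peaks is not given here, so this cannot be read as a trait of the members. For the odorant receptors, *Olfr1080* had the closest peak of all, a KO peak 1983 bp upstream. *Olfr54* had a KO peak at 2637 bp and a WT peak at 7529 bp upstream, *Olfr320* a WT peak at 3965 bp and a KO peak at 8089 bp upstream, and *Olfr1390* a KO peak 6369 bp downstream. The vomeronasal receptor gene *Vmn1r205* had a KO peak 6532 bp upstream. *Pmch*, which encodes the precursor of melanin-concentrating hormone, had a pair of KO peaks 5332 and 8836 bp downstream, both in an intron of the neighbouring *Parpbp*. The other KO peaks were those of *Pld5*, of *Gm11567* (6124 bp), of the lipase gene *Lipm* (6568 bp, in its intron) and of *Spag16*, a gene of the sperm flagellum (8324 bp upstream, in its intron). In WT, *Rai2* had a peak 4682 bp upstream and *March4*, a membrane-bound ubiquitin ligase, one 6826 bp upstream.

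The members named 301 nearest genes, of which 147 were named by KO peaks alone, 97 by WT peaks alone and 57 by both. The same split over all peaks is not given here, so it cannot be read as a trait of the members. A single peak, which can name a gene from only 1 list, named 204 of the genes, and 32 had at least 3 peaks. Of these 32, 23 lay on chromosome 1. With 5 peaks each, the most were found for *Cntnap5a* and *Cntnap5b*, which encode neuronal membrane proteins of the contactin-associated family, and for *Pard3b*. The peaks of *Cntnap5a* (2 KO and 3 WT) were 849970 to 1580090 bp from its TSS and those of *Cntnap5b* (2 KO and 3 WT) 422448 to 586603 bp. The 5 peaks of *Pard3b* (4 KO and 1 WT) lay in its intron, 32224 to 38078 bp from the TSS, in 2 L1 copies.

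Other genes with several peaks included *Ctnna3*, an α-catenin of cell junctions, with 2 KO and 2 WT peaks in its introns, and *Col19a1*, another collagen gene, with 3 KO peaks and no WT peak in 1 intronic L1. *Pla2g4a*, the cytosolic phospholipase A2 that releases arachidonic acid, was nearest to 1 KO and 3 WT peaks, but at 623992 to 1700913 bp. *Dsel*, related to the epimerase of dermatan sulfate synthesis, was nearest to 2 KO and 1 WT peak at 304109 to 1191834 bp. *Hdac2*, a histone deacetylase, was nearest to 2 KO peaks and 1 WT peak at 64712 to 66647 bp. These genes are examples from the 32, and *Brinp3*, *4930590L20Rik* and *Gm15674*, among others, had 4 peaks each. No set of genes was tested. The nearest gene was protein-coding for 198 KO (76.2%) and 128 WT peaks (69.2%), and a non-coding RNA gene for 55 (21.2%) and 52 (28.1%).

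Some KO and WT peaks were neighbours within 1 L1 copy. A WT L1Md_A peak lay within 5 kb of 55 KO peaks (21.2%) and a KO L1Md_A peak within 5 kb of 56 WT peaks (30.3%), the smallest gap being 12 bp. Another L1Md_A peak of the same list lay within 5 kb of 63 of 260 KO peaks (24.2%) and 37 of 185 WT peaks. For 53 of the 55 KO peaks with a WT neighbour (96.4%), the nearest WT peak was in the same L1. Peaks were assigned to 1 copy when they had the same orientation and their distance in the genome matched that in the element within 200 bp. In this way the 444 placed peaks fell into 349 copies, of which 274 held 1 peak and 75 held more. KO peaks alone were found in 183 copies (52.4%), WT peaks alone in 121 (34.7%) and both in 45 (12.9%), with any peaks shared by the genotypes not counted if the lists lack them. The same split of L1Md_T copies is not given here, so it cannot be read as a trait of the members. A copy with 1 peak can hold only 1 list. The 75 copies with more comprised 21 with KO peaks only, 9 with WT peaks only and 45 with both. In those 45, the mean position of the KO peaks was nearer the start of the element in 20 and that of the WT peaks in 25. Over all members with an L1Md_A peak of the other list on their chromosome, neighbours included, the median gap was 889914 bp from a KO peak (n = 248) and 640057 bp from a WT peak (n = 183).

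**Figure D3:**
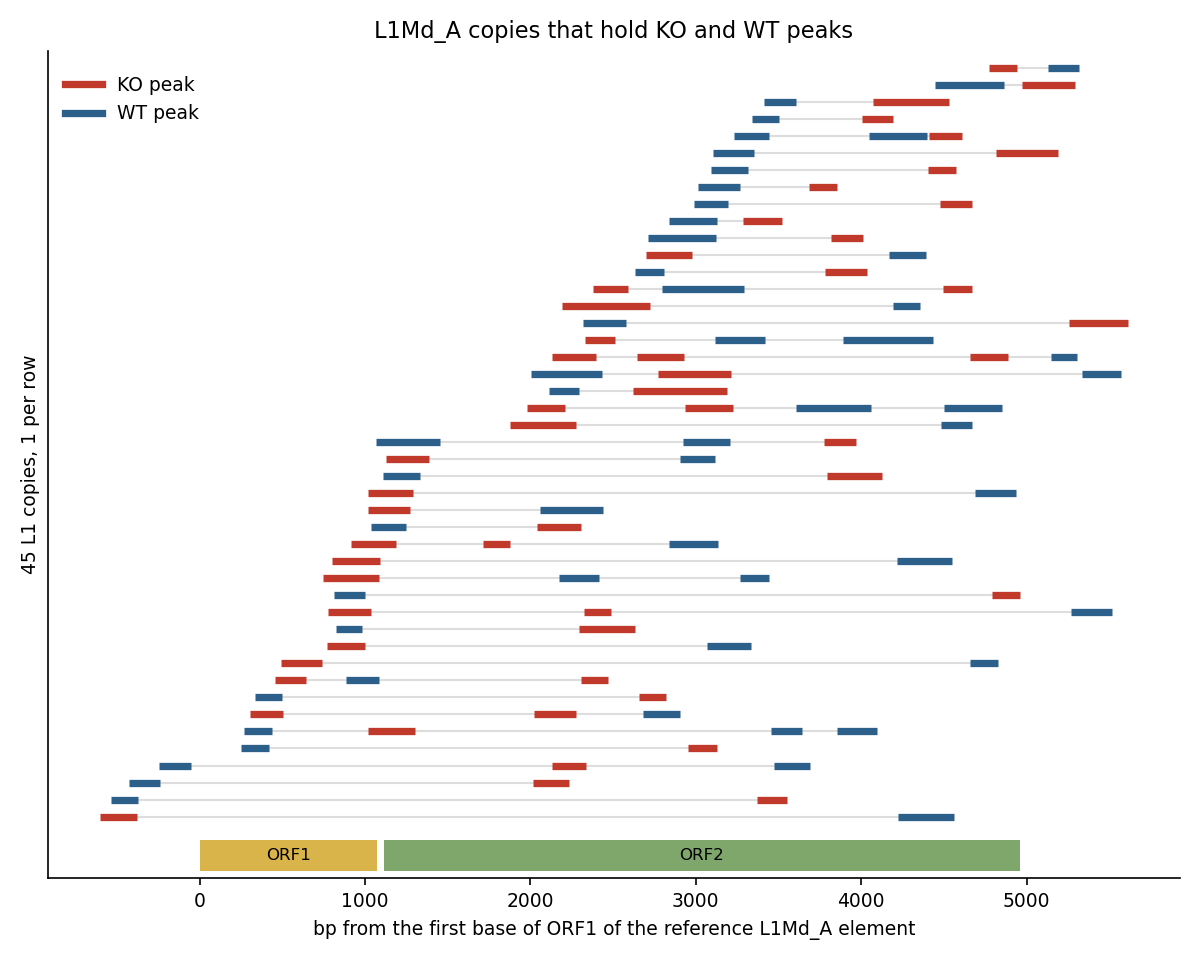
Each row is 1 of the 45 L1 copies with both KO and WT peaks, with each peak drawn at its aligned span in bp from the first base of ORF1. Spans of both lists lie from before ORF1 to after ORF2, and the mean KO position is nearer the start in 20 copies and the mean WT position in 25.

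The most peaks in a single copy were 4, in 3 copies. In *Pard3b*, KO peaks were centred at 2262.5, 2784.5 and 4772.5 bp of the element and the WT peak at 5226.5 bp. In *Col4a4*, KO peaks were at 2094.5 and 3080.5 bp and WT peaks at 3830 and 4678.5 bp. For *Frk*, which encodes a Src-related kinase and has its TSS 868970 to 872592 bp from these peaks, WT peaks were at 353, 3549.5 and 3975.5 bp with the KO peak at 1161.5 bp. In the first 2 copies the KO peaks came before the WT peaks, and in the copy far from *Frk* the KO peak lay between WT peaks. The smallest gap was in *Fmn2*, which encodes a formin that nucleates actin filaments. There a KO peak of 202 bp ended 12 bp from a WT peak of 350 bp, and another WT peak of 218 bp lay in the same copy.

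The members were concentrated on a few chromosomes. Chromosome 1 held 103 KO (39.6%) and 81 WT peaks (43.8%), chromosome 10 held 45 and 32, chromosome 11 held 31 and 20, and chromosome 12 held 17 and 16. Together these held 196 KO peaks (75.4%, 95% interval 69.8 to 80.2%) and 149 WT peaks (80.5%, 74.2 to 85.6%), which did not differ past the threshold (Fisher's exact test, p = 0.207, adjusted p = 0.386). These chromosomes were picked from earlier results of these data on all L1 peaks, which include the members. Their high share is therefore a description, and its intervals do not allow for that choice. The same chromosomes hold 172 of the 900 intact A-type elements (19.1%) and 21.6% of the chromosome length. There were 2.01 members per intact element on them and 0.137 on the other 16. Chromosome X holds 83 intact A-type elements and had 10 members, and chromosome 3 holds 81 and had 8. Placed in the text order of their names, as 1, 10, 11, 12, 13, the first 5 chromosomes had 184, 77, 51, 33 and 19 members, and no other chromosome had more than 10.

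**Figure D4:**
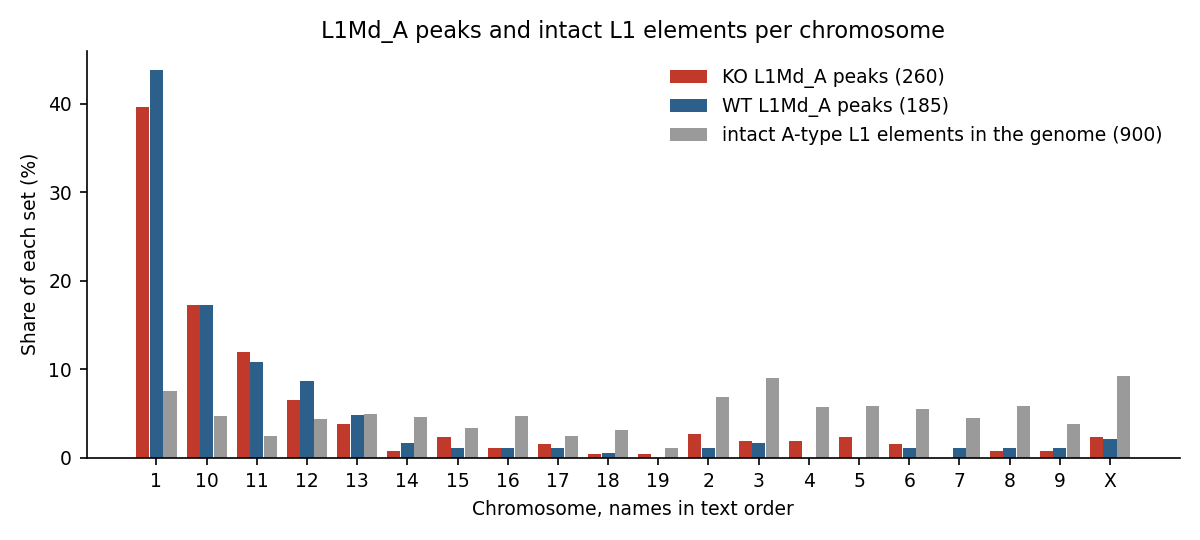
Percentage of the KO L1Md_A peaks, of the WT L1Md_A peaks and of the intact A-type L1 elements of the genome that lie on each chromosome, with chromosome names in text order. Both lists fall from chromosome 1 to chromosome 13 and stay under 3% on all others, while intact elements range from 1.11% to 9.22%.

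The concentration was seen in the members whose sequence recurs most. The median 100-mer of a member occurred a median of 2021 times in the genome in KO (quartiles 1042 and 3145.25) and 2144.5 times in WT (1375 and 3305.5), against 5 and 2 for the peaks outside L1Md_A. For L1Md_T peaks these medians were 1932.5 in KO and 2107.5 in WT. Where the median 100-mer of a member occurred at least 1000 times, 309 of 345 members (89.6%, 95% interval 85.9 to 92.4%) were on chromosomes 1, 10, 11 and 12. Where it occurred at most 3 times, 7 of 24 were (29.2%, 14.9 to 49.2%). The classes in between had 10 of 36 (27.8%) and 19 of 40 (47.5%). L1Md_T peaks ran alike, from 6 of 35 (17.1%) at 3 or fewer to 610 of 647 (94.3%) at 1000 or more. For peaks outside L1 the share was 151 of 1016 (14.9%) at 3 or fewer and 7 of 8 at 1000 or more. These classes were set after the data were seen. The methods state no filter on reads that match several places equally well, and the part of their placement in this distribution was not tested.

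**Figure D5:**
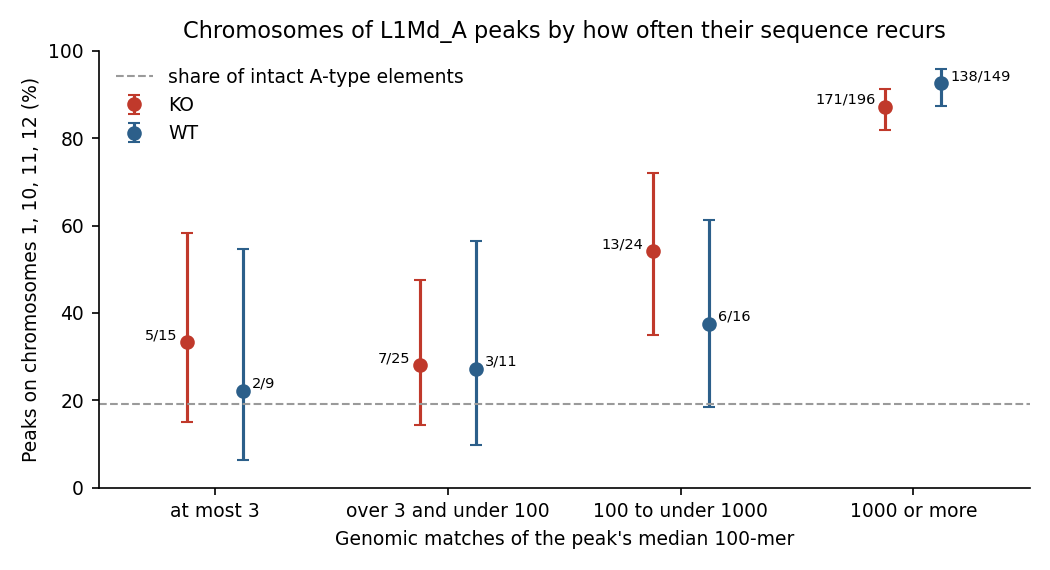
Percentage of L1Md_A peaks on chromosomes 1, 10, 11 and 12 (vertical axis) by the number of genomic matches of the peak's median 100-mer, for KO and WT, with Wilson 95% intervals and counts beside the points. The dashed line is the 19.1% of intact A-type elements that lie on these chromosomes, and the share rises to 87.2% in KO and 92.6% in WT where the 100-mer occurs at least 1000 times.

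The median 100-mer occurred once in 5 KO and 3 WT peaks. The KO peaks were nearest to *Usp40*, *Gm10823*, *Gm20491*, *Fggy* and *4932441J04Rik*, and the WT peaks to *Lhfpl2*, *Trps1* and *Mir28b*. They lie on 8 different chromosomes, and only that of *Usp40*, on chromosome 1, is on one of the 4 with most members.

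Against L1Md_T, which supplied 839 peaks, none of 8 shares differed after adjustment. L1Md_A peaks were in introns in 29.0% of cases and L1Md_T peaks in 25.6% (Fisher's exact test, p = 0.208, adjusted p = 0.278), and came from KO in 58.4% and 60.0% (p = 0.633, adjusted p = 0.633, Fisher's exact test). At least 300 bp wide were 23.4% and 29.2% (Fisher's exact test, p = 0.0252, adjusted p = 0.0883). Within 10 kb of a TSS were 3.37% and 5.36% (Fisher's exact test, p = 0.126, adjusted p = 0.202), and on chromosomes 1, 10, 11 and 12 lay 77.5% and 81.3% (Fisher's exact test, p = 0.124, adjusted p = 0.202). A peak of the other genotype lay within 5 kb of 25.8% and 31.8% (Fisher's exact test, p = 0.0291, adjusted p = 0.0883). ORF2 held 65.5% and 63.7% of placed peaks (Fisher's exact test, p = 0.539, adjusted p = 0.617). The sense share of intron peaks was 26.4% (19.5 to 34.6%) and 37.9% (31.6 to 44.6%; Fisher's exact test, p = 0.0331, adjusted p = 0.0883).

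The members held no long exact match to the probes. The longest exact match of any of the 16 probes to either strand of a member was between 7 and 10 bases, with a median of 8 in both lists. A match of 10 bases was found in 23 members, 19 of them placed in ORF2. The single match that occurred in more members than any other, in 8, belonged to probe Meg3-2 and is shown for that reason, with the matching bases in capitals. A pair of overlapping matches to probe Meg3-14 was found in 6 and 5 members, and a match to probe Meg3-10 in 4.
Probe Meg3-2: agTTGCTCTGTAtggtagtg

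BLAST+ found no alignment between the *Meg3* transcript of 1913 bases and the reference L1Md_A element, and the members themselves were not aligned to it. *Meg3* has been described to contact DNA at purine-rich stretches, so runs of purines or of pyrimidines were measured in the central 157 bases of each peak. A run of at least 12 was present in 46 KO members (17.7%, 95% interval 13.5 to 22.8%) and 27 WT members (14.6%, 10.2 to 20.4%), in 16.1% of L1Md_T peaks, in 25.2% of peaks outside L1Md_A and L1Md_T (23.1 to 27.5%) and in 26.2% of RefSeq promoters. The longest run in any member was 14 bases. These shares are descriptions and say nothing of contact.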

How the data were processed

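*Meg3* ChIRP-seq of WT and β-actin KO MEFs was analysed from the deposited peak lists, 1 per genotype. The authors' steps were trimming (Trimmomatic), alignment to GRCm38 (BWA-MEM) and deduplication (Picard). They combined the 4 libraries of a genotype, called peaks with MACS2 against input, classed them as unique or shared with HOMER, removed blacklisted regions and annotated with HOMER on mm10. Tool versions are not given in the sources used here. In the deposited lists, positions and distances are in bp, and the deposited score is 1 throughout. Depth is unknown.

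The members and lists here were chosen with earlier results of these data known. Peaks are the units of all tests and are not independent. Shares have Wilson 95% intervals. Fisher's exact test (two-sided) was adjusted by Benjamini-Hochberg over 6 shares for KO against WT and over 8 for L1Md_A against L1Md_T. Widths are end minus start plus 1. Intact elements are an ORF of 900 to 1500 bp followed by one of at least 3700 bp in GRCm38, typed by the 400 bases before ORF1. The reference is the intact element near members whose 31-mers are most shared. Peaks were aligned with BLAST+ 2.17.0, and placed when 50% of their bases aligned. Matches of 100-mers were counted on either strand of the autosomes and X. Orientation is by RefSeq strand of the annotated transcript. Genes named are those nearest to at least 3 members, to a member within 10 kb of a TSS, or to KO and WT members under 10 kb apart, and *Pld5*. A further sequence that this rule covers is not reported here. Genes of the single-copy peaks, of the widest peak, of the sequences shown and the host genes were named after their values were seen. On simulated data, 200 of 200 pieces cut from ORF1 to ORF2 of the reference, with a few bases changed, were placed within 20 bp. No piece came from the promoter side or from after ORF2, so placement there was not checked in this way. Planted copy numbers were recovered in 100 of 100 cases. Probe sequences are those of the paper. Tests ran in scipy 1.17.1 under Python 3.11.15, with pandas 2.3.3, numpy 2.4.6 and numba 0.67.0, and plots in matplotlib 3.10.9.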

Additional observations from a re-analysis of the deposited data

How the results depend on the processing

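Of 80 results under alternatives, 75 kept their direction and their side of the adjusted threshold. No comparison had passed in the main setting, so keeping that side meant not passing again. The excess of wide peaks in KO passed with a limit of 250 bp, at 13.3 percentage points. The intron share of L1Md_A minus that of L1Md_T turned to -0.427 points without chromosome 1 and to -0.220 points by RefSeq genes over the peak centre, and among peaks within 100 kb of a TSS the KO share turned to 3.91 points and the share with a neighbour of the other genotype within 5 kb to 1.15 points. Neither side of these reversals passed, and their cause was not tested. Counting peaks within 7 kb once, chosen after seeing the data, left every comparison short of the threshold. A restriction to members whose median 100-mer occurs once would leave 5 KO and 3 WT members, too few to compare. A pooled list per genotype gives no spread between cultures, and without scores or depth peaks cannot be ranked. No paired analysis was possible because each genotype has 1 pooled list and replicate numbers only name it.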
